A study of Drosophila melanogaster with 3 samples.

Results

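The nuclear genes of oxidative phosphorylation are 88 protein-coding genes of *Drosophila melanogaster*, out of 13973 protein-coding genes on the nuclear chromosomes. They were chosen by symbol alone: ND- for complex I, Sdh for complex II, UQCR for complex III, COX followed by a digit for complex IV and ATPsyn for complex V. This gave 40 genes of complex I, 8 of complex II, 9 of complex III, 16 of complex IV and 15 of complex V. The binding of the forkhead transcription factor fkh near their transcription start sites (TSSs) was read from deposited peak lists of chromatin immunoprecipitation followed by sequencing (ChIP-seq), which places DNA bound by a protein on the genome. The study holds 1 group of 3 biological replicates and no comparison between conditions. Every sample was made from whole prepupae, males and females pooled, of a transgenic fly line in which the C-terminal end of fkh carries green fluorescent protein (GFP), and the fusion was precipitated with an antibody to GFP after shearing by sonication. All samples share this fusion and this line, and the labels do not give the promoter that drives it. The labels' age of 24 day is longer than development to the prepupa takes and was not used. In whole animals a peak cannot be placed in a tissue, and the stage could not be checked against marker genes because no expression was measured.

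Oxidative phosphorylation makes ATP in the inner mitochondrial membrane. Complex I takes electrons from NADH and complex II from succinate, complex III passes them to cytochrome c, complex IV reduces oxygen, and the proton gradient built on the way drives the ATP synthase, complex V. Subunits of all but complex II are split between the mitochondrial and the nuclear genome, so their nuclear genes depend on transcription factors of the nucleus. *Drosophila* also carries duplicated copies of many of these genes, named with a final L, and many such copies are known for expression in the testis. fkh is the fly relative of the mammalian FOXA factors and is known for its roles in the salivary gland and gut.

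A gene was given a peak when the optimal list had a summit at most 1000 bp from a TSS of that gene. The optimal list holds the 9531 peaks that the authors kept after a reproducibility step across replicates, and its signal is a score of the authors whose scale the files do not state, from 160.0 to 6080.8 with a median of 294.1. The optimal peaks were also the 9531 strongest of the 30000 regions in the list called on all replicates together, here called the pooled list. Most of those regions are weaker than any optimal peak, and the list includes background. Each replicate's own list also holds 30000 regions, and its signals were compared by rank, where 1 is the strongest. Read depth is not given in these lists, so the intervals below, all exact 95% Clopper-Pearson intervals, cover counting error only.

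A peak was found at 22 of the 88 genes, or 25.0% (16.4 to 35.4%), and at 31.1% of all protein-coding genes. The interval includes the share of all genes. In the pooled list 40 of the 88 genes had a region, 45.5% (34.8 to 56.4%), beside 43.3% of all genes. Among the 9531 strongest regions of each replicate, 21 genes had one in replicate 1, 26 in replicate 2 and 27 in replicate 3. The shares of all genes in the same lists were 31.0%, 33.1% and 35.6%. The mean over replicates was 28.0% ± 3.65 (SD, n = 3) for oxidative phosphorylation genes and 33.2% ± 2.29 (SD, n = 3) for all genes, and in each replicate the share was below that of all genes. Because 1 group was sequenced, no test between groups was possible, and these shares were set side by side with no test.

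The 22 peaks had a median signal of 272.0, with a range from 172.7 to 1311.8 and a median rank of 5295 in the optimal list. All genes with a peak had a median signal of 395.1 and a median rank of 3131. When a peak also had to overlap the 9531 strongest regions of each of 2 replicates, 16 to 18 of the 22 genes had one, and their median signal was between 406.5 and 431.7, beside 442.6 to 446.2 for all genes. The genes that dropped out, among ATPsynCF6, ATPsynD, COX5B, COX7A, ND-15 and SdhB, had signals of at most 236.7.

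**Figure D1:**
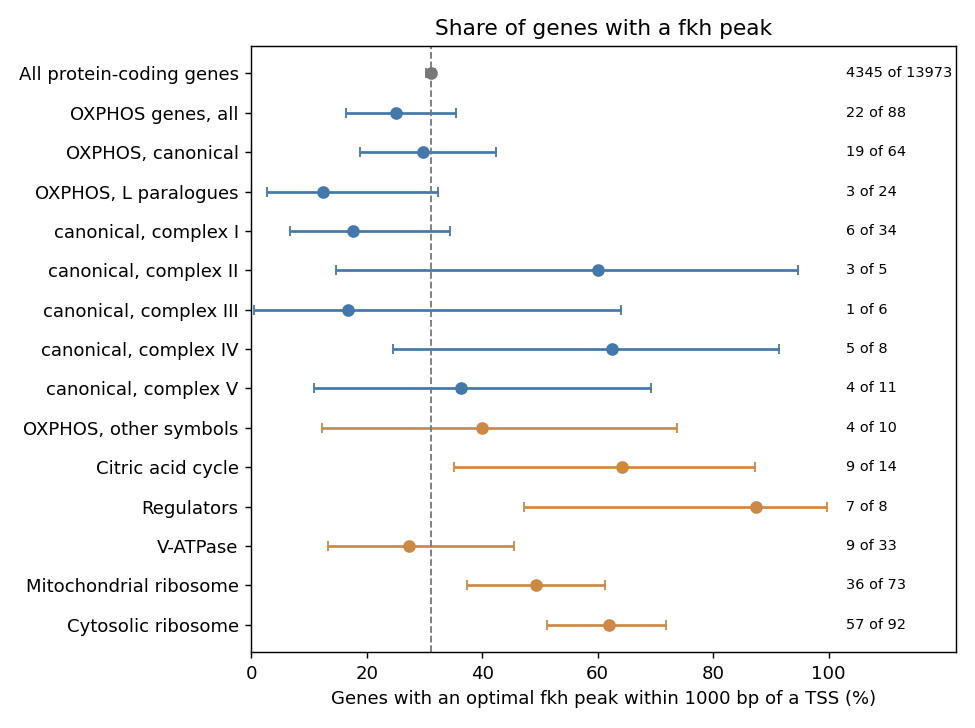
Share of genes with an fkh peak within 1000 bp of a TSS, in percent, for all protein-coding genes, the genes of oxidative phosphorylation, their complexes without paralogues, the paralogues and the comparison lists. Points are shares, lines are exact 95% intervals that cover counting error only, the dashed line is the 31.1% of all genes, and the counts stand at the right. The interval of each complex crosses the dashed line, with complex I lowest in its upper bound, 34.5%.

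Complex I, the NADH dehydrogenase, had a peak at 6 of 40 genes, 15.0% (5.71 to 29.8%), the only complex whose interval lay wholly below the 31.1% of all genes. Without its paralogues the share was 6 of 34, 17.6% (6.76 to 34.5%), and the interval included that of all genes. The strongest peak of the whole set belonged to it, at ND-51 (FBgn0031771, chr2L:6060842-6062757 in dm6, minus strand), which encodes the subunit that in mammals binds NADH and the flavin. Its signal was 1311.8, rank 216 of 9531, and it ranked 433, 83 and 201 in replicates 1, 2 and 3, a mean of 239 ± 178 (SD, n = 3). Its summit lay 155 bp upstream of the TSS, and 77 bp from that of CG13994 on the other strand. ND-SGDH followed at 542.3, with ranks of 2661, 1420 and 1390. ND-B8 stood at 485.2, with ranks of 3601, 1792 and 1905, and ND-PDSW at 402.5, with ranks of 3188, 3511 and 3162. These 3 encode accessory subunits, which surround the electron-carrying core. All 4 genes were among the strongest 9531 regions in every replicate, and the replicate ranks of ND-51 did not overlap those of the others. The remaining peaks were weaker. ND-15 had a signal of 236.7, and its summit lay in coding sequence of CG3436, 139 bp from the TSS of CG3436. ND-ASHI had a signal of 220.8 with ranks of 9164, 5397 and 7949. ND-18 had no region in any list, and ND-19 had one in replicate 3 only, at rank 8090.

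The sequences at the strongest complex I summits are shown because ND-51, the strongest, held none of the searched words, while ND-SGDH held a TTATATAA word, in capitals, of the kind described as an element of nuclear respiratory genes. They are dm6 sequence read 5′ to 3′ on the gene's strand, within 50 bp of each summit.
ND-51, chr2L:6062862-6062962, minus strand: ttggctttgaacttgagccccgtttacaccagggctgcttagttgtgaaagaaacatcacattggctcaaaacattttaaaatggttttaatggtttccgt
ND-SGDH, chr3L:12138617-12138717, minus strand: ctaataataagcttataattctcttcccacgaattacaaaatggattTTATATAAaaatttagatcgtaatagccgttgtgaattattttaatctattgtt
ND-B8, chr2L:4454461-4454561, plus strand: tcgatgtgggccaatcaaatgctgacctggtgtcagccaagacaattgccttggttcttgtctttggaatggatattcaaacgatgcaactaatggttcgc

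Complex II, succinate dehydrogenase, had a peak at 3 of 8 genes, 37.5% (8.52 to 75.5%), beside 31.1% of all genes. SdhC, which encodes a membrane anchor, had a signal of 567.3 and ranked 3590, 1023 and 1203, a mean of 1940 ± 1430 (SD, n = 3). SdhA, the flavoprotein that oxidises succinate, stood at 281.7 with ranks of 6423, 4409 and 4692. SdhB, the iron-sulphur subunit, stood at 172.7 with ranks of 12368, 6418 and 11561, so it was among the strongest 9531 regions in replicate 2 only. SdhD, the other membrane anchor, had only a pooled region of 149.8. SdhAL had a pooled region of 128.5, and Sdhaf3, which encodes an assembly factor and no subunit, had no region in any list.

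Complex III, cytochrome c reductase, had 1 peak among 9 genes, 11.1% (0.281 to 48.2%), beside 31.1% of all genes. In the pooled list 6 of the 9 genes had a region, 66.7% (29.9 to 92.5%), an interval that includes the 43.3% of all genes. The optimal peak was at UQCR-6.4, which encodes a small subunit, with a signal of 452.9 and ranks of 2786, 2343 and 3291. Its summit lay 644 bp upstream of UQCR-6.4 and 34 bp from the TSS of Rab4, a small GTPase. A weaker summit of 283.0 lay at the UQCR-6.4 start itself. UQCR-C1, a core subunit, had no region in any list. UQCR-11 had one in replicate lists only, at ranks of 14374 in replicate 2 and 25798 in replicate 3.

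Complex IV, cytochrome c oxidase, had a peak at 8 of 16 genes (24.7 to 75.3%), beside 31.1% of all genes. The count was 3 of 16, 18.8%, when a summit counted for its nearest gene only, beside 24.5% of all genes, and also 3 with the 4766 strongest peaks, beside 20.9%. COX7B led with a signal of 518.8 and ranks of 2593, 1787 and 1939, then COX7AL2 with 509.7 and ranks of 2589, 1186 and 2753. COX7C followed with 410.4 and ranks of 2357, 2803 and 4575, and COX6AL with 262.3 and ranks of 6208, 5203 and 8783. These 4 were within the strongest 9531 in each replicate, as did COX7AL at 250.3 (6691, 5907 and 7420) and COX5A at 235.7 (8036, 6457 and 7553). COX5B at 188.0, with ranks of 10666, 8195 and 10814, and COX7A at 174.2, with 11289, 7515 and 11860, were beyond 9531 in replicates 1 and 3. All are nuclear-encoded subunits, or copies of such subunits, that sit around the catalytic core made by the mitochondrial genome. COX4 and COX6B, also structural subunits, had no region in any list.

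Complex V, ATP synthase, had a peak at 4 of 15 genes, 26.7% (7.79 to 55.1%), beside 31.1% of all genes. ATPsynE, a subunit of the membrane sector, had a signal of 467.5 and ranks of 2697, 1714 and 2929. Its summit lay 968 bp downstream of its TSS, beyond the end of the gene and 15 bp from the TSS of spn-B. ATPsynCF6, a subunit of the stalk, stood at 236.0 with ranks of 7488, 5026 and 9922. That summit lay 923 bp upstream, in an intron of Sec13 and 424 bp from the TSS of Sec13, and a weaker summit of 167.9 lay 111 bp upstream of ATPsynCF6. ATPsynC, which encodes the proton-carrying ring, stood at 221.9 with ranks of 8532, 6490 and 8815. ATPsynD, another stalk subunit, stood at 203.6 with ranks of 7636, 13789 and 5031. ATPsynE and ATPsynC were among the strongest 9531 in every replicate and the others were not. Without replicate 1, the count for complex V was 2. ATPsynB and ATPsynF had no region in any list.

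**Figure D2:**
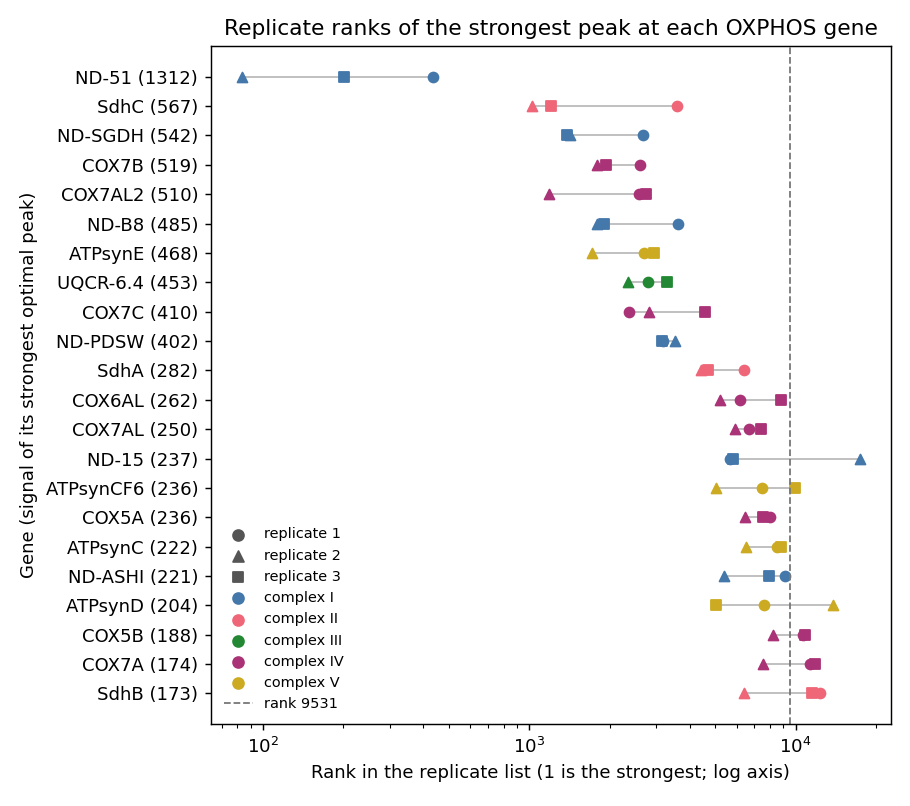
Rank of each of the 22 peaks in the 3 replicate lists, on a log axis on which 1 is the strongest region. Shapes are replicates, colours complexes, and the dashed line is rank 9531. ND-51 sits between 83 and 433, and at 16 of the 22 genes all 3 points lie left of the dashed line.

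Ranks of the 22 genes followed each other between replicates as they did for all genes with a peak. Spearman's rho across the 22 genes was 0.81 between replicates 1 and 2, 0.86 between 1 and 3 and 0.83 between 2 and 3. Across the 4240 to 4290 genes with a rank in both replicates it was 0.81, 0.85 and 0.86. The points share their libraries and 1 control, and genes are not replicates. A region among the strongest 9531 in all 3 replicates lay at the peak of 16 of the 22 genes, 72.7%, and of 79.9% of all genes with a peak. ND-15 was the most uneven, at 5686, 17399 and 5795. These are regions that overlap its peak. Regions with a summit within 1000 bp of an ND-15 TSS ranked 23609, 15517 and 9940 at best, beyond 9531 in every replicate.

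**Figure D3:**
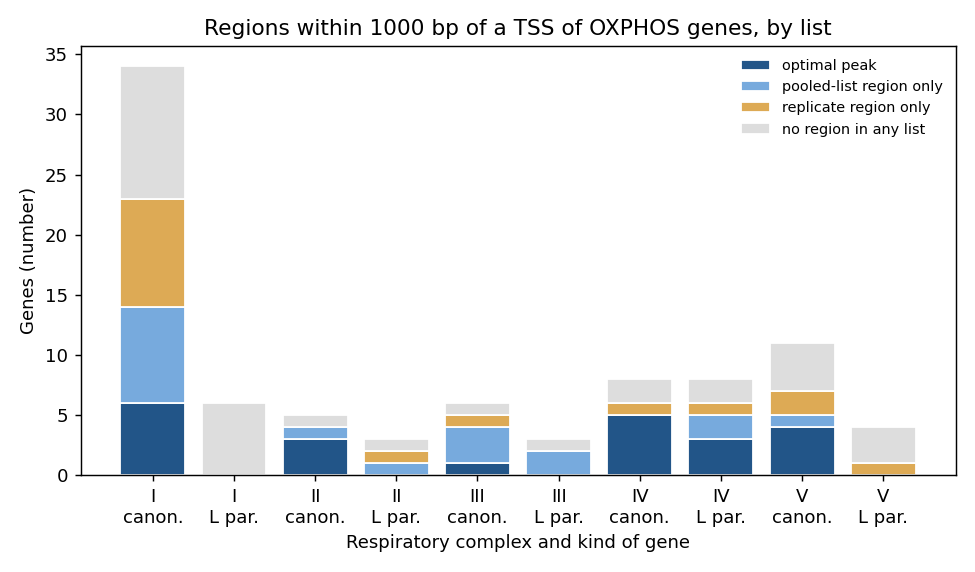
Genes of each complex by the best list in which they have an fkh region within 1000 bp of a TSS, as counts of genes, for canonical genes (canon., with ND-MNLL and the assembly factor Sdhaf3) and for paralogues (L par., numbered copies included). In complex I, 6 of 34 non-paralogue genes have an optimal peak, 8 a pooled region only, 9 a region in a replicate list only and 11 none, and all 6 of its paralogues have none.

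The 88 genes fell into 22 with an optimal peak, 18 with a pooled region only, 16 with a region in a replicate list only and 32 with none. Of all 13973 genes, the same classes held 4345, 1701, 2022 and 5905. The 18 regions found only in the pooled list had signals from 30.7 to 152.6. Several of the 16 had strong regions in the replicate lists. ND-42, a complex I subunit, had regions of rank 3720 in replicate 1 and 2518 in replicate 3. ATPsynG had regions of rank 3059 in replicate 1 and 4855 in replicate 2, and ND-23, an iron-sulphur subunit of complex I, of rank 5540 in replicate 2 and 7108 in replicate 3. In each case no region of the pooled list overlapped. ND-42, ATPsynG and ND-23 were named after their values were seen. A gene had a region among the strongest 9531 of some replicate but none in the pooled list in 11 of 36 cases, 30.6%, against 887 of 5708 or 15.5% for all genes, and in complex I in 7 of 14. Most of the 11 had such a region in 1 replicate only. These were ATPsynbeta, COX8, ND-19, ND-30, ND-49 and ND-B14.5A in replicate 3 and ND-MLRQ in replicate 2. Which step of the authors' pooled calling left these out was not tested.

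At SdhA the same was seen in all replicates. A region 833 to 835 bp upstream of its TSS ranked 1654, 1569 and 919, with signals of 279.0, 195.8 and 164.8, and overlapped no optimal or pooled region. In each replicate this region ranked above those at the optimal peak of SdhA. The optimal summit lay 51 bp upstream of the SdhA TSS and 750 bp downstream of a TSS of cer, a gene on the same strand. The region further upstream lay nearer to that cer TSS than to the SdhA TSS, so it cannot be assigned to SdhA rather than cer. Genome-wide, 273 of the strongest 9531 regions of replicate 1, 440 of replicate 2 and 748 of replicate 3 overlapped no pooled region, 2.86%, 4.62% and 7.85%. Of the 6962 regions of replicate 1 that overlapped one in both other replicates, 75 or 1.08% did so.

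The paralogues were then set beside the subunits. Of 21 genes whose symbol ends in L, 2 had a peak, 9.52% (1.17 to 30.4%), against 20 of the other 67, 29.9% (19.3 to 42.3%), and the intervals overlapped. The 21 include ND-MNLL, a structural subunit whose name ends in L by its residues, and leave out COX6AL2, COX7AL2, ND-51L1 and ND-51L2. With these moved, 3 of 24 paralogues had a peak, 12.5% (2.66 to 32.4%), against 19 of 64 other genes, 29.7% (18.9 to 42.4%). All 3 belonged to complex IV: COX7AL2, COX6AL and COX7AL. No paralogue of complexes I, II, III or V had an optimal peak, in 0 of 6, 0 of 3, 0 of 3 and 0 of 4 genes, and those of complex I had no region in any list.

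Further paralogues had regions in the pooled list below the optimal peaks: UQCR-6.4L at 151.4, SdhAL at 128.5, COX5BL at 95.4, UQCR-11L at 60.2 and COX7CL at 46.0. ND-MNLL stood at 152.6. The summit at COX6AL lay 943 bp downstream of its TSS, beyond the end of the gene, in an intron of Cyp4aa1, a cytochrome P450 gene, and that at COX7AL lay 96 bp upstream of its TSS. COX7AL2 had 3 summits. The second, of signal 348.0, lay 17 bp inside its start, while the strongest lay 826 bp upstream. The interval of the second overlapped replicate regions of rank 102, 149 and 246, whose own summits lay over 1000 bp from any COX7AL2 TSS. Replicate regions with a summit within 1000 bp of a COX7AL2 TSS ranked 2589, 1186 and 2727 at best. Expression was not measured, so whether these copies were expressed in the prepupae was not tested.

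Where the summits lay relative to the start sites was examined next. The median distance from the strongest summit to the TSS was 130 bp for the 22 genes and 174 bp for all genes with a peak. The summit was upstream in 16 of 22, 72.7%, and in 69.8% of all. Within 500 bp lay 16 of 22, 72.7%, against 79.6%. By annotation 13 of the 22 summits lay between genes, 4 in a UTR, 3 in an intron and 2 in coding sequence, of the gene itself or of a neighbour. The limit of 1000 bp fell between close values. ND-15 at 953 bp and ATPsynE at 968 bp were just inside it, and ATPsyndelta at 1031 bp and UQCR-Q at 1053 bp just outside.

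**Figure D4:**
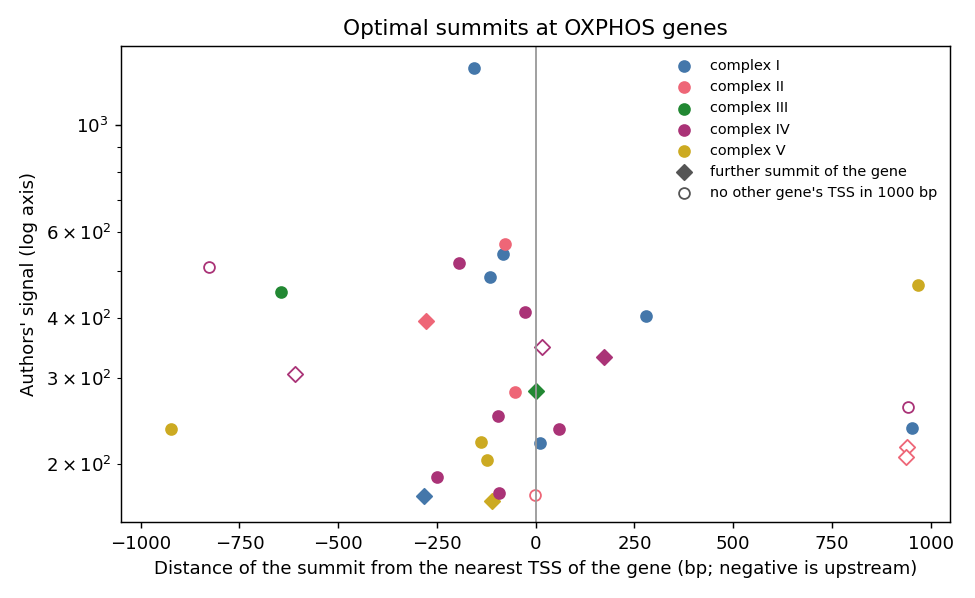
Authors' signal on a log axis against the distance of each optimal summit from the nearest TSS of the gene in bp, negative upstream. Circles are the strongest summit of each of the 22 genes, diamonds further summits of the same gene, colours the complexes, and open symbols summits with no other gene's TSS within 1000 bp. The strongest summits have a median distance of 130 bp, 4 lie beyond 900 bp, and the 3 open circles are COX7AL2, COX6AL and SdhB.

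Another gene's TSS lay within 1000 bp of the summit in 19 of the 22 genes, 86.4%, against 53.3% of all genes with a peak. The TSS nearest to the summit was the gene's own in 10 of 22, 45.5%, against 73.7%. The sharing genes had varied functions. SdhC shared its summit with Tctp, COX7B with Sec3, an exocyst subunit, 65 bp away, COX5A with glo 2 bp away, COX7A with Arl2 36 bp away, and ATPsynD with mRpL55, a mitochondrial ribosomal protein, 27 bp away. ND-ASHI shared its summit with Fum1, fumarase of the citric acid cycle. A peak at these promoters therefore cannot be assigned to the respiratory gene rather than its neighbour.

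The genes were short and often paired. Their median length was 1097 bp against 2164 bp for all genes, and 44 of the 88 had a head-to-head neighbour, a gene on the other strand that starts within 1000 bp, against 36.2% of all genes. Such a neighbour was present for 40 of 64 canonical genes, 62.5%, and for 4 of 24 paralogues, 16.7%. Among genes of at most 2000 bp, 18 of 70 had a peak, 25.7%, against 21.6% of all such genes, and among longer genes 4 of 18, 22.2%, against 39.4%. Among genes with 1 TSS, 11 of 53 had a peak, 20.8%, against 24.2% of all such genes. Among genes with several TSSs, 11 of 35 had a peak, 31.4%, against 50.4%.

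The share of peaks was next split by whether a TSS of another gene lay near the gene's own TSS. Of the 51 genes with another gene's TSS within 1000 bp, 19 had a peak, 37.3% (24.1 to 51.9%), against 42.4% of all such genes. Of the 37 with none, 3 had a peak, 8.11% (1.70 to 21.9%), against 22.6% (21.7 to 23.6%) of all such genes. The 3 were ATPsynC, COX6AL and SdhB. Of these 37 genes 17 were paralogues, with 1 peak, and the 20 canonical genes had 2 peaks (1.23 to 31.7%), an interval that includes the 22.6%. The intervals of all 37 genes, up to 21.9%, and of all such protein-coding genes, from 21.7%, overlapped at their ends, and the difference was not tested.

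**Figure D5:**
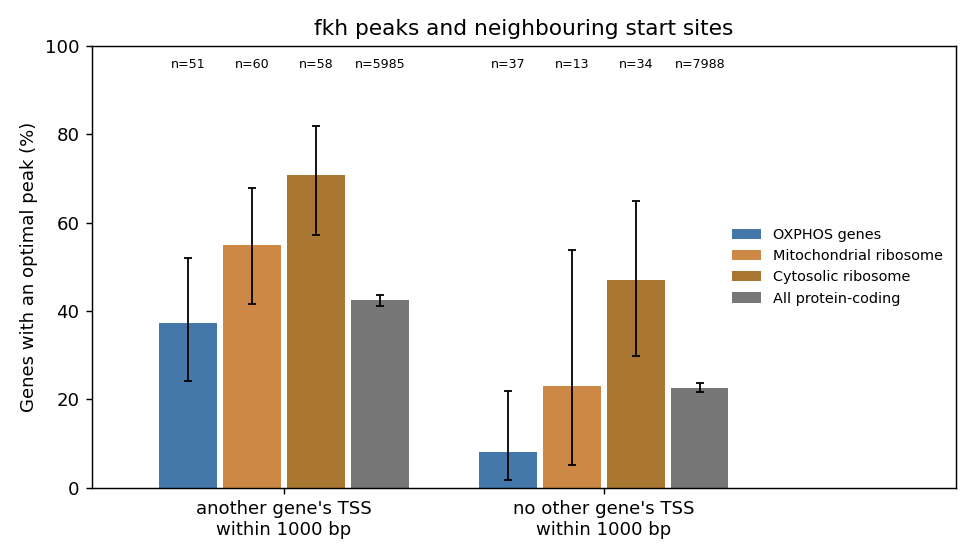
Share of genes with an fkh peak in percent, split by whether another gene's TSS lies within 1000 bp. Bars start at 0, error bars are exact 95% intervals and n is the number of genes. The set stands at 37.3% with a neighbour and 8.11% without, and all protein-coding genes at 42.4% and 22.6%.

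Words that forkhead factors are known to bind were searched at the summits. The wide family, TATTT or TGTTT followed by AC, AT, GC or GT and read on both strands, was found within 50 bp of 10 of 22 summits, 45.5% (24.4 to 67.8%), against 52.4% of the 4885 optimal summits within 1000 bp of a TSS. The narrow pair, TGTTT followed by AC or AT and so part of that family, was found at 2 summits, 9.09%, against 975 of the same 4885. Of the 10 strongest genes, 4 held a wide word at the summit and 6 held none. TATCGATA, the DNA replication-related element (DRE), and the TTACATAA, TTACGTAA, TTATATAA and TTATGTAA family of nuclear respiratory genes each stood at 1 of 22, 4.55%, against 3.15% and 1.60%. GAGAG, bound by the GAGA factor, was at 0 of 22 (0 to 15.4%), against 17.2%. These shares depended on the window. Within 100 bp the wide family was at 77.3% of the 22 summits, against 77% of all 9531 optimal summits, and the narrow pair at 18.2% against 30.6%. In that window GAGAG was at 3 of 22, 13.6% (2.91 to 34.9%), against 30.3%. The DRE and the respiratory family were each at 2 of 22, 9.09% (1.12 to 29.2%), an interval that includes their 2.81% and 3.25% of all summits. The compared set differs as well: within 50 bp the DRE was at 1.70% of all 9531 summits and 3.15% of the 4885 near a TSS. TTATATAA also holds the letters of a TATA box. A match is a description of letters and not a site.

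Examples of both kinds of word are shown, 3 summits with a wide forkhead word and then 3 promoter windows with a DRE or respiratory word, as dm6 sequence with the word in capitals, 5′ to 3′ on the gene's strand. Of the promoter examples, COX7A had an optimal peak, while ND-B14.5A and ND-42 had regions in replicate lists only.
SdhC, chr3R:11209876-11209976, minus strand: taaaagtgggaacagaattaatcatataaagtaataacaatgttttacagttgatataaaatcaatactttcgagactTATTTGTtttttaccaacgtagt
COX7AL2, chr2L:2198688-2198788, minus strand: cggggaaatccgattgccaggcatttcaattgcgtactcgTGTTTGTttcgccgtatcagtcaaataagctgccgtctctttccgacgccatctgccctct
ATPsynCF6, chr3R:23356937-23357037, minus strand: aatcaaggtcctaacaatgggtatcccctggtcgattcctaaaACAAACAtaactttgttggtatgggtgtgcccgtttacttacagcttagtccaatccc
COX7A, chr3R:8341027-8341056, minus strand: cgacatcgatgTATCGATAatacatcgata
ND-B14.5A, chrX:2172444-2172473, plus strand: ttcgcgatagtTATCGATAagtatatcaat
ND-42, chr3R:22027554-22027583, plus strand: ttttgtaagtgTTATATAAagtttttaaaa

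In promoters, from 250 bp before to 50 bp after the annotated start, the wide forkhead family was found in 57 of 88, 64.8%, against 62.8% of all promoters, and the narrow pair in 16, 18.2%, against 21.3%. The DRE was found in 8 of 88, 9.09%, against 8.95%, and the respiratory family in 6, 6.82%, against 5.13%. Each was in 1 of the 22 promoters of genes with a peak. In the 66 promoters of genes without a peak, the DRE was in 7 and the respiratory family in 5. Among canonical genes the DRE and the respiratory family stood at 8 of 64, 12.5%, and 6 of 64, 9.38%. Among paralogues both stood at 0 of 24 (0 to 14.2%), an interval that includes the shares of the canonical genes and of all promoters. GAGAG was found in 21 of 88, 23.9%, against 30.2%, and in 10 of 24 paralogues.

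Similar gene groups were set beside the 88. Genes of cytosolic ribosomal proteins had a peak at 57 of 92, 62.0% (51.2 to 71.9%), those of mitochondrial ribosomal proteins at 36 of 73, 49.3% (37.4 to 61.3%), and those of the V-ATPase, the vacuolar proton pump, at 9 of 33, 27.3%. The intervals of both ribosomal lists lay above that of oxidative phosphorylation genes at 16.4 to 35.4%. Without paralogues the interval of the latter was 18.9 to 42.4%, which overlapped that of mitochondrial ribosomal genes and lay below that of cytosolic ones. Paralogues were taken out of the oxidative phosphorylation list only, so the compared lists are not alike in this. With no neighbouring TSS the shares were 16 of 34 for cytosolic and 3 of 13 for mitochondrial ribosomal genes, and 1 of 18 for V-ATPase genes. With a neighbouring TSS they were 41 of 58, 33 of 60 (41.6 to 67.9%) and 8 of 15. The 37.3% of oxidative phosphorylation genes with a neighbour had an interval of 24.1 to 51.9%. A neighbour was present for 82.2% of mitochondrial ribosomal genes and 58.0% of oxidative phosphorylation genes. The median signals of the cytosolic ribosomal, mitochondrial ribosomal and V-ATPase lists were 403.3, 430.9 and 475.9.

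The citric acid cycle feeds electrons to the chain, and its list here also holds Pdha and Pdhb of pyruvate dehydrogenase. This list had a peak at 9 of 14 genes, 64.3% (35.1 to 87.2%), beside 31.1% of all genes. It was led by mAcon1 at 693.1, Idh3g at 637.8 and Mdh2 at 517.1, and Pdhb had a peak of 272.6. Among 10 further genes of the chain that the symbols miss, 4 had a peak (12.2 to 73.8%), with 31.1% of all genes inside the interval: Cyt-c-d at 348.2, Cyt-c-p at 291.0, ox at 238.3 and blw at 173.2. Among 8 regulators of mitochondrial genes, 7 had one (87.5%, 47.3 to 99.7%), beside the same 31.1%. Ets97D, the fly relative of a mammalian nuclear respiratory factor subunit, stood at 569.8, Dref, which binds the DRE, at 514.6 and TFAM, which packages mitochondrial DNA, at 512.3. The Dref summit is also that of RpL13, a cytosolic ribosomal protein gene, and counts in both lists, as the Fum1 summit counts for ND-ASHI and the mRpL55 summit for ATPsynD. srl, the fly relative of PGC-1, had no region in any list.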

How the data were processed

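The 3 biological replicates of 1 group were used, as labelled. Per the deposited file lists, the authors called regions in each replicate against a shared control and in all replicates together, and made the optimal list by a reproducibility (IDR) step. The sources used here name no aligner, caller or threshold. The deposited signal is a score whose scale the files do not state. The deposited −log10 q-values saturate in the optimal list, so regions were ranked by the authors' signal score. Summits of the dm6 lists were set against the TSSs of Ensembl release 115 with a window of 1000 bp. All 129531 regions lay inside the assembly's chromosomes, and 99.8% of annotated start codons read ATG in it. A replicate's rank at a peak is the best among overlapping regions (1 bp). Words on either strand counted up to 50 bp from a summit. Python 3.11.15, numpy 2.4.6 and scipy 1.17.1 were used, and the counting was tested on simulated data. Genes named are the 10 strongest, the 4 strongest per complex, paralogues with a pooled region, up to 2 canonical genes per complex with no pooled region, those next to the 1000 bp limit and the 3 strongest of other lists. Other genes, such as ND-ASHI, COX5A, COX5B, COX7A, SdhD, ND-B14.5A, blw and srl, were named after their values were seen. Of the citric acid cycle list, Nc73EF matched no gene. The genes and lists were chosen with earlier results of these data known. No test was run, since only 1 group exists. The dm3 lists were not used here.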

Additional observations from a re-analysis of the deposited data

How the results depend on the processing

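No paired analysis was possible because only 1 group was sampled. Of 131 alternative values, 38 moved, by over 1.5 times for counts, outside the 95% interval for word shares or at all for the median signal, and 93 stayed within these limits. The count of 22 genes with a peak became 10 with the 4766 strongest peaks (11.4%, all genes 20.9%). With the pooled list it was 40 (45.5%, all genes 43.3%). It was 11 when a summit counted for its nearest gene only (12.5%, all genes 24.5%). Among the 37 genes with no TSS neighbour within 1000 bp it was 3 (8.11%, all such genes 22.6%). Without single replicates it was 16 to 18 (18.2 to 20.5%, all genes 26.5 to 26.7%). Complexes I to V had a peak at 6 of 40, 3 of 8, 1 of 9, 8 of 16 and 4 of 15 genes. The pooled list gave 14 for I, 5 for II and 6 for III (35.0, 62.5 and 66.7%, all genes 43.3%). Nearest gene only gave 3 for I, 3 for IV and 1 for V. The 4766 strongest gave 1 for II, 3 for IV and 1 for V (12.5, 18.8 and 6.67%, all genes 20.9%). Among genes with no neighbour the counts were 0 of 16, 1 of 5, 0 of 5, 1 of 6 and 1 of 5. These are for complexes I to V in order, beside 22.6% of all such genes. The groups are smaller than the whole complexes, so a lower count alone is not a lower share. A 2000 bp window gave 2 for III (22.2%, all genes 36.9%). Peaks in the strongest 9531 of all 3 replicates gave 2 for V, and leaving out single replicates 2 to 3. For the 21 symbols ending in L, 2 became 1 at 250 bp (4.76%, all genes 21.8%) and 1 at 500 bp (4.76%, all genes 26.8%). It became 5 at 2000 bp (23.8%, all genes 36.9%) and 0 with the 4766 strongest (all genes 20.9%). The pooled list gave 8 (38.1%, all genes 43.3%) and nearest gene only 1 (4.76%, all genes 24.5%). Without neighbours it was 1 of 14 (7.14%, all such genes 22.6%). For the other 67 genes, 20 became 10 with the 4766 strongest (14.9%, all genes 20.9%) and 32 in the pooled list (47.8%, all genes 43.3%). It became 10 for nearest gene only (14.9%, all genes 24.5%) and 2 of 23 without neighbours (8.70%, all such genes 22.6%). The replicate mean of 24.7 genes became 13 for the 5000 strongest regions (14.8%, all genes 22.8%). For the 20000 strongest it was 38.7 (43.9%, all genes 43.8%). Without single replicates, an alternative added after seeing the data, it was 23.5 to 26.5. The median signal of 272.0 was 406.5 to 431.7 without single replicates. Wide forkhead words within 100 bp were at 77.3% of summits (all summits 77%). The other words also changed there, within their wide intervals: narrow forkhead 9.09 to 18.2%, DRE and the respiratory family each 4.55 to 9.09%, GAGAG 0 to 13.6%. The cause of these shifts was not tested. Depth is unknown, and small complexes give wide intervals.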

Other observations

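A TSS of another gene of the mitochondrial, V-ATPase or oxidative phosphorylation lists lay within 1000 bp of the TSS of 6 genes, in 5 pairs. ATPsynD and mRpL55 start 95 bp apart on opposite strands and share a summit of signal 203.6. ND-ASHI and Fum1 start 164 bp apart on opposite strands and share a summit of 220.8. ND-B16.6 and kdn, citrate synthase of the citric acid cycle, start 228 bp apart at their closest TSSs. ND-B16.6 had no region in any list, and kdn had no optimal peak but a pooled region of 78.0 and replicate regions of rank 18727, 12734 and 21144. COX8 and VhaM9.7-b start 415 bp apart and had a region in replicate 3 only, at rank 6880. COX7C and its copy COX7CL start 867 bp apart on the same strand, with an optimal peak at COX7C and a pooled region of 46.0 at COX7CL.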
